A study of Mus musculus with 30 samples.

Results

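The genes described here are the writers, erasers and readers of DNA methylation in mouse dorsal CA1 (dCA1), a hippocampal region that object location memory (OLM) depends on. The members were chosen by gene symbol, and they are 9 of the 24883 rows of the expression table. Dnmt1, Dnmt3a and Dnmt3b are the writers, Tet1, Tet2 and Tet3 the erasers, and Mbd1, Mbd2 and Mbd3 the readers. Each symbol occupied a single row, 7 members averaged at least 1 FPKM (fragments per kilobase of transcript, scaled to the mapped fragments of the library) over all libraries, and Tet1 and Dnmt3b lay below that level.

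The series measured RNA from 30 male wild-type C57BL/6J mice of 2 to 4 months, 1 library per mouse and 6 mice in each of 5 conditions. VEH-HC mice were handled and stayed in the home cage, VEH-T10 mice received the 10 min threshold training and VEH-T3 mice the 3 min sub-threshold training, and all of these received the jetPEI transfection reagent without DNA. The paper gives the home cage mice handling only, whereas its OLM procedure includes days of habituation to the chamber before training. In a comparison with VEH-HC, the training session and this habituation can therefore not be told apart. Y397F-T10 mice had 10 min of training after infusion of a CREST plasmid that the labels call phospho-null. Y397D-T3 mice had 3 min after a CREST plasmid that the labels call phospho-mimetic. Y397F and Y397D replace the same tyrosine with phenylalanine and with aspartic acid. The authors could not detect phosphorylation of this tyrosine and call both only point mutants, so the label names are used here as names. CREST, the product of Ss18l1, is a calcium-responsive transactivator that binds the coactivator CBP. Tissue was taken 1 h after training. Both plasmids encode HA-tagged mouse CREST under the miniCaMK2 promoter, which is active mainly in excitatory neurons, so the mutant protein comes on top of the mouse's own CREST in the cells that took up DNA. The labels place the infusion 3 days before training and describe the tissue as a dorsal hippocampus hemisphere. No condition combined the home cage with a plasmid, and neither mutant was given with both training periods. No group received a plasmid for wild-type CREST or an empty plasmid. A difference between a plasmid condition and its vehicle can therefore not be assigned to the mutation rather than to added CREST or DNA.

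DNA methylation in mammals is laid down mostly on the cytosine of CpG pairs. DNMT1 copies the pattern to the new strand after replication, and DNMT3A and DNMT3B methylate sites that carried no mark. TET enzymes oxidise the methyl group, after which repair or replication can restore plain cytosine. MBD1 and MBD2 bind methylated CpG, whereas mammalian MBD3 binds it poorly and works as a subunit of the nucleosome remodelling and deacetylase (NuRD) complex. Neurons no longer divide and yet keep DNMT1, DNMT3A and TET3, and several of these enzymes have been studied in hippocampal memory.

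The sequences 250 bases upstream of an annotated start are shown for Dnmt3a, Tet2 and Tet3, because their levels rose and fell together from library to library, as described further on. They are RefSeq promoter windows on GRCm38.p6, written 5′ to 3′ on the strand of the gene, and capitals mark CpG. None of these bases lies in an annotated exon of the gene itself. Each stretch lies within the coordinates of its gene given further on, so it is not the sequence upstream of the whole gene. Dnmt3a has further windows, of which the most upstream is shown. The windows are chr12:3806730-3806979 on the plus strand for Dnmt3a, chr3:133544391-133544640 on the minus strand for Tet2 and chr6:83441679-83441928 on the minus strand for Tet3.
Dnmt3a: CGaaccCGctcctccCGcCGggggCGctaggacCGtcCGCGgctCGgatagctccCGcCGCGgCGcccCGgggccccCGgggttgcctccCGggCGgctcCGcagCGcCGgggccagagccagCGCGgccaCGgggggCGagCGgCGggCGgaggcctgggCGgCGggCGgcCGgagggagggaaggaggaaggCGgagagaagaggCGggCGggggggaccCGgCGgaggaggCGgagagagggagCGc
Tet2: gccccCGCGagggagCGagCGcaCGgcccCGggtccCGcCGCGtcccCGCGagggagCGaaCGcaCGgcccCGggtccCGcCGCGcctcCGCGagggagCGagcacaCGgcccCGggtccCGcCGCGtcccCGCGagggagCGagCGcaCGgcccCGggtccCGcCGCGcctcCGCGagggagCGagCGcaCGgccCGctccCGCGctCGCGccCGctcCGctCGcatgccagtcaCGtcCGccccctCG
Tet3: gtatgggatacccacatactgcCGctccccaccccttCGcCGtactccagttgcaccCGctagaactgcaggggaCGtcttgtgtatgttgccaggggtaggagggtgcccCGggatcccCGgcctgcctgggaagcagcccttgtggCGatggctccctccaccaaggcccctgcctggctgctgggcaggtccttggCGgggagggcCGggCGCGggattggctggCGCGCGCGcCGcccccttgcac
These stretches hold 38, 51 and 17 CpG pairs respectively. In the Tet2 stretch the run cCGCGagggagc occurs 5 times, whereas no run of 12 bases occurs more than once in the other two. In the Tet3 stretch 174 of the bases also belong to exons of B230319C09Rik, a noncoding gene on the opposite strand.

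RefSeq windows, each of 300 bases with 250 before the start, were found for 7 of the 9 members, 11 windows in all, and none for Mbd1 and Mbd2. Their CpG counts ran from 2, at the most upstream of 3 starts of Dnmt1, to 57 at Tet2, beside a median of 7 over 32851 mouse windows. The cAMP response element TGACGTCA, the motif bound by CREB, was searched on both strands and was present in 0 of the 11 windows and in 1.79% of all windows. Its shorter form TGACG, which the longer motif contains, was present in 1 of the 11, that of Tet2, and in 20.8% of all windows. A match of letters is a description only.

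All 4 CA1 pyramidal markers that were checked were present in every condition, with a summed FPKM of 101 to 158 over the 30 libraries, but so were markers of dentate gyrus, CA3, interneurons and glia, so the samples are not CA1 neurons alone. Of 5 choroid plexus markers (Ttr, Kl, Folr1, Clic6 and Kcnj13), all had values, and their sum ranged from 918 to 5595 FPKM in VEH-HC, 29.5 to 12780 in VEH-T3, 13.9 to 2837 in Y397D-T3, 10.1 to 4468 in VEH-T10 and 28.7 to 10390 in Y397F-T10. Of 3 thalamus markers (Slc17a6, Tcf7l2 and Lef1), all had values, with sums of 6.78 to 9.64 in VEH-HC, 4.81 to 9.86 in VEH-T3, 2.93 to 6.48 in Y397D-T3, 3.53 to 5.45 in VEH-T10 and 3.52 to 6.2 in Y397F-T10. The median of both sums was highest in VEH-HC, and their part in the comparisons with VEH-HC was not tested. Ss18l1 averaged 12.3 FPKM in VEH-HC, 12.9 in VEH-T3, 13.6 in Y397D-T3, 12.01 in VEH-T10 and 12.6 in Y397F-T10, so the level of this gene does not by itself identify the plasmid groups. Relative depth, read from the smallest steps between low values, ran from 0.812 to 1.25 of the median library.

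FPKM is scaled per length, so the levels of the members can be set side by side. Over the 30 libraries the mean level was 80.1 FPKM for Mbd3, 27.8 for Mbd2, 8.99 for Dnmt1, 8.51 for Mbd1, 6.82 for Dnmt3a, 5.13 for Tet3, 2.43 for Tet2, 0.608 for Tet1 and 0.2 for Dnmt3b. Mbd3 made up 57.0% of the summed FPKM of the 9 genes and Mbd2 19.8%, so most of the sum came from Mbd3 and Mbd2. The third reader gene, Mbd1, held 6.05%, beside 6.39% for Dnmt1. Between neighbours in this order, Mbd3 and Mbd2, Mbd2 and Dnmt1, Tet3 and Tet2, Tet2 and Tet1, and Tet1 and Dnmt3b did not overlap in any of the 30 libraries. Dnmt1 and Mbd1 overlapped, and Dnmt1 was the higher in 21 of 30 libraries, so their order is not resolved. The ranges of Mbd1 and Dnmt3a overlapped too, as did those of Dnmt3a and Tet3, yet within a library Mbd1 exceeded Dnmt3a in 30 of 30 and Dnmt3a exceeded Tet3 in 30 of 30.

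**Figure D1:**
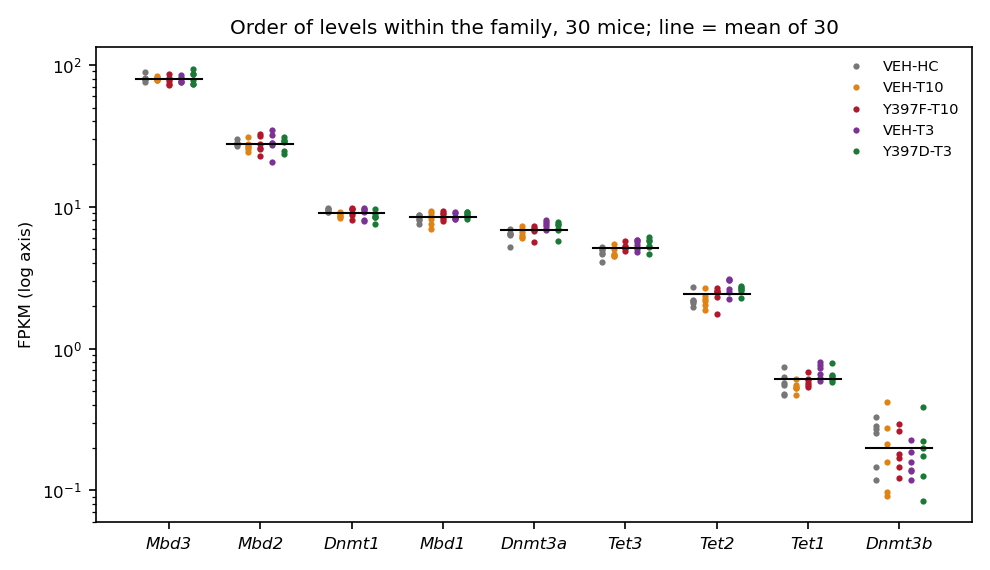
FPKM on a log axis for the 9 genes in order of their mean, with 1 point per mouse coloured by condition and a line at the mean of 30 mice. The genes span from 80.1 FPKM for Mbd3 to 0.2 for Dnmt3b, and the points of neighbouring genes overlap where Dnmt1, Mbd1, Dnmt3a and Tet3 adjoin.

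The highest condition mean exceeded the lowest by 1.10-fold for Dnmt1, 1.18-fold for Dnmt3a, 1.25-fold for Tet2, 1.14-fold for Tet3, 1.07-fold for Mbd1, 1.05-fold for Mbd2 and 1.05-fold for Mbd3. The ratio was larger for the genes under 1 FPKM, at 1.29-fold for Tet1 and 1.45-fold for Dnmt3b. Within a condition the mice varied with a pooled coefficient of variation of 6.53% for Mbd3, 6.66% for Dnmt1, 6.89% for Mbd1, 8.04% for Tet3, 8.56% for Dnmt3a, 11.5% for Mbd2 and 11.9% for Tet2. At the low levels of Tet1 and Dnmt3b it was 12.3% and 44.6%. The samples are bulk tissue, in which fewer cells of a type and less RNA per cell cannot be told apart.

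**Figure D2:**
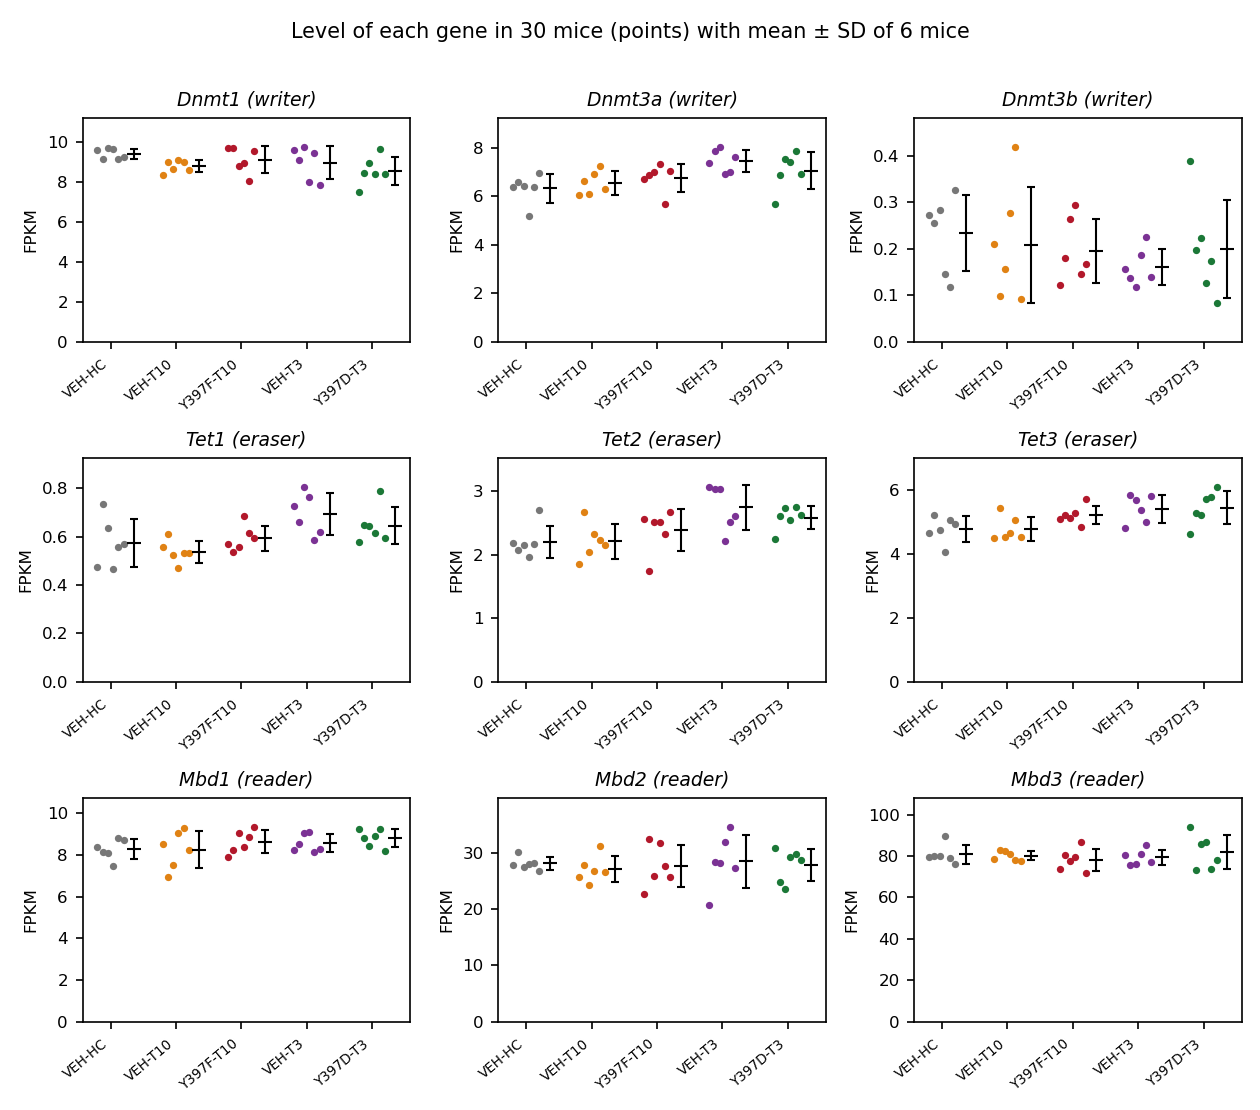
FPKM of each gene (vertical axes from 0) in the 5 conditions, with 1 point per mouse and the mean ± SD of 6 mice beside the points. Dnmt3a, Tet1, Tet2 and Tet3 have their higher values in VEH-T3 and Y397D-T3, while the condition means of Mbd1, Mbd2 and Mbd3 stay within 1.07-fold of each other.

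The comparisons were fitted with limma on log2(FPKM + 1) across 13184 rows with a mean of at least 1 FPKM, and a gene is called when its Benjamini-Hochberg adjusted p within the comparison is under 0.05. Tet1 and Dnmt3b take their values from the fit without this filter. None of the 9 members was called by limma in any of the 9 comparisons. A Cyber-T-style test called 0 members in the 7 comparisons between pairs of conditions. Its p is adjusted over the pairs of the 5 conditions (Tukey) and not over rows, and a call by it means such a p under 0.05. At an unadjusted p under 0.05, limma gave 4 members for VEH-T3 and 4 for Y397D-T3 but 0 for VEH-T10 and 0 for Y397F-T10, each against VEH-HC. It gave 2 for the mean of the trained conditions against VEH-HC, 4 for VEH-T10 against VEH-T3, and 0 for either plasmid condition against its trained vehicle and for the difference between the plasmid effects. Among all tested rows the percentage called against VEH-HC was 5.17% for VEH-T3, 7.07% for Y397D-T3, 0.819% for VEH-T10, 1.13% for Y397F-T10 and 9.66% for the mean of the trained conditions. It was 0.00758% for Y397D-T3 against VEH-T3, 0.0455% for VEH-T10 against VEH-T3, 0.0% for the phospho-null plasmid against VEH-T10 and 0.0303% for the difference between the plasmid effects. At an unadjusted p under 0.05 the same percentages were, in the same order, 21.6%, 24.9%, 14.9%, 16.9% and 25.3% against VEH-HC and 7.87%, 8.15%, 3.78% and 9.08% for the rest. Every comparison with VEH-HC uses the same 6 control libraries, so their values are given side by side and are not independent of each other. Exact permutation tests of the mean FPKM, 2-sided with 6 mice against 6, were run for 9 members and 7 pairs of conditions, and the lowest p after Benjamini-Hochberg adjustment over these 63 tests was 0.0909.

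**Figure D3:**
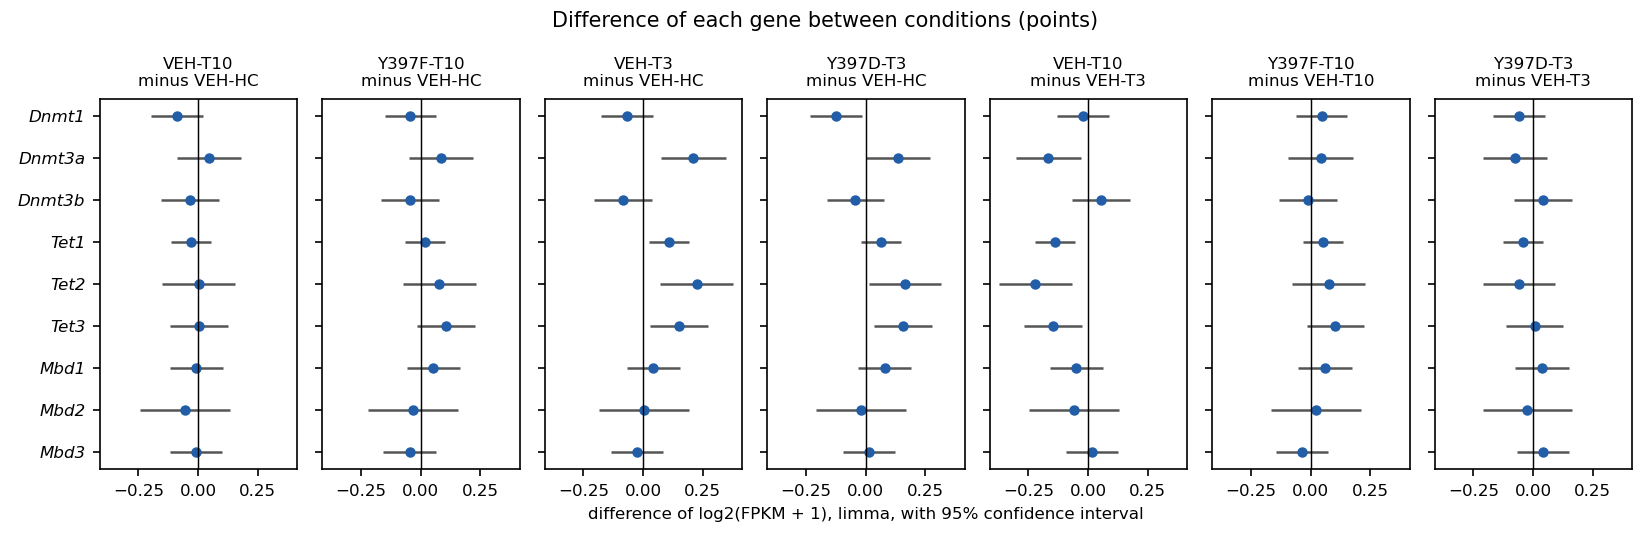
Difference of log2(FPKM + 1) from limma for each gene (points) with its 95% confidence interval (lines), 1 panel for each of the 7 pairs of conditions. Among these pairs, the intervals that leave out 0 are those of Dnmt3a, Tet1, Tet2 and Tet3 for VEH-T3 against VEH-HC, of Dnmt1, Dnmt3a, Tet2 and Tet3 for Y397D-T3 against VEH-HC, and of Dnmt3a, Tet1, Tet2 and Tet3 for VEH-T10 against VEH-T3, none of them called after adjustment.

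Dnmt1 (ENSMUSG00000004099, chromosome 9: 20907209–20959888, minus strand), the maintenance methyltransferase, was highest in the home cage. Its lowest, median and highest FPKM were 9.15, 9.44 and 9.72 in VEH-HC, 7.88, 9.3 and 9.77 in VEH-T3, 7.52, 8.45 and 9.68 in Y397D-T3, 8.39, 8.84 and 9.12 in VEH-T10, and 8.05, 9.28 and 9.73 in Y397F-T10. All 6 VEH-T10 mice lay below all 6 VEH-HC mice, a lack of overlap that 2.43% of all tested rows also showed in this comparison, whereas the other trained conditions overlapped the home cage. VEH-HC averaged 9.43 ± 0.255 FPKM and VEH-T10 8.81 ± 0.292 (mean ± SD, n = 6), and the log2 difference was -0.09 (standard error 0.053, limma adjusted p = 0.453), and the exact permutation test gave p = 0.002165, the smallest possible with 6 against 6, or 0.0909 adjusted over the 63 tests. The limma standard error rests on all 30 libraries, and the mice of VEH-HC and VEH-T10 varied less in Dnmt1 than those of the other conditions, with coefficients of variation of 2.71% and 3.31% beside 7.23% to 9.29%. In Y397D-T3 the level was 8.58 ± 0.713 FPKM, with a log2 difference from VEH-HC of -0.13 (standard error 0.053, limma adjusted p = 0.137), and 5 of its 6 mice lay under the home cage median. VEH-T3 and Y397F-T10 differed from VEH-HC by -0.07 and -0.04, with 3 of 6 mice on each side of its median.

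Dnmt3a (ENSMUSG00000020661, chromosome 12: 3806007–3914443, plus strand) encodes the de novo methyltransferase that adult neurons express, and its largest difference was between the 3 min vehicle mice and the home cage. The lowest, median and highest FPKM were 5.18, 6.41 and 6.97 in VEH-HC, 6.9, 7.48 and 8.02 in VEH-T3, 5.69, 7.17 and 7.85 in Y397D-T3, 6.05, 6.46 and 7.25 in VEH-T10, and 5.67, 6.93 and 7.31 in Y397F-T10. Every VEH-T3 mouse lay above the VEH-HC median, and the ranges overlapped only between the lowest VEH-T3 mouse and the highest VEH-HC mouse. The means were 6.32 ± 0.601 in VEH-HC and 7.45 ± 0.453 FPKM in VEH-T3, a log2 difference of 0.21 (standard error 0.0656, limma adjusted p = 0.0565, exact permutation p = 0.00433). VEH-HC mouse 4, at 5.18 FPKM, stood apart from the other 5 home cage mice, at 6.36 to 6.97, and the difference fell to 0.16 (adjusted p = 0.163) without it. The call was gained without any 1 of VEH-HC mouse 6 (adjusted p = 0.0431), VEH-T3 mouse 5 (0.0427), Y397F-T10 mouse 5 (0.0442) or Y397D-T3 mouse 1 (0.035), so Dnmt3a sits at the threshold. Against VEH-HC the log2 difference was 0.04 in VEH-T10, 0.09 in Y397F-T10 and 0.13 in Y397D-T3, with adjusted p of 0.808, 0.54 and 0.2 in limma. Without VEH-HC mouse 4 the Y397D-T3 value was 0.09 (adjusted p = 0.419). VEH-T10 lay below VEH-T3 by a log2 difference of -0.17 (standard error 0.0656, limma adjusted p = 0.538), with 6 of 6 VEH-T10 mice below the VEH-T3 median.

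Since both are writers, the ratio of Dnmt3a to Dnmt1 within a library was also taken, as a description without a test. It averaged 0.671 ± 0.074 in VEH-HC, 0.835 ± 0.0807 in VEH-T3, 0.82 ± 0.0401 in Y397D-T3, 0.741 ± 0.0347 in VEH-T10 and 0.741 ± 0.051 in Y397F-T10. By these means Dnmt3a stood nearest to Dnmt1 after 3 min of training, with or without the plasmid. The ranges of the trained conditions overlapped, at 0.738 to 0.964 in VEH-T3, 0.756 to 0.879 in Y397D-T3, 0.703 to 0.803 in VEH-T10 and 0.69 to 0.813 in Y397F-T10. That of VEH-HC was 0.537 to 0.751. The ratio was taken without removing the length and GC trend described further on. Dnmt3b (ENSMUSG00000027478, chromosome 2: 153649450–153687730, plus strand), the other de novo enzyme, is used mainly in early development. It lay between 0.0843 and 0.419 FPKM in the 30 libraries, with condition means of 0.161 to 0.234, and at so low a level a change was not detectable. Its log2 differences in the 7 pairs of conditions ran from -0.09 to 0.05 with limma adjusted p of 0.497 or more.

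Tet1 (ENSMUSG00000047146, chromosome 10: 62804570–62908996, minus strand) was the least abundant of the erasers. Its lowest, median and highest FPKM were 0.467, 0.564 and 0.735 in VEH-HC, 0.586, 0.693 and 0.805 in VEH-T3, 0.578, 0.63 and 0.789 in Y397D-T3, 0.47, 0.531 and 0.61 in VEH-T10, and 0.536, 0.583 and 0.684 in Y397F-T10. VEH-T10 held the lowest condition mean and VEH-T3 the highest, and their ranges met only at the edge. Between them the log2 difference on FPKM + 1, a scale that shrinks changes at this level, was -0.14 (standard error 0.0408, limma p = 0.00203 and adjusted p = 0.437, exact permutation p = 0.00433, 6 of 6 VEH-T10 mice below the VEH-T3 median). Against VEH-HC it was 0.11 in VEH-T3 (standard error 0.0408, limma adjusted p = 0.149) with 6 of 6 mice above the home cage median. On log2(FPKM + 0.1) these Tet1 differences were -0.31 (adjusted p = 0.538) and 0.24 (adjusted p = 0.212).

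Tet2 (ENSMUSG00000040943, chromosome 3: 133463679–133545139, minus strand), which unlike the other TET genes encodes an enzyme without a CXXC DNA-binding domain, had its highest mean in VEH-T3. The lowest, median and highest FPKM were 1.96, 2.16 and 2.7 in VEH-HC, 2.22, 2.82 and 3.07 in VEH-T3, 2.25, 2.62 and 2.76 in Y397D-T3, 1.85, 2.19 and 2.68 in VEH-T10, and 1.75, 2.52 and 2.68 in Y397F-T10. All 6 mice of VEH-T3 and of Y397D-T3 exceeded the VEH-HC median, but VEH-HC mouse 6, at 2.7 FPKM, overlapped with them while the other 5 home cage mice lay at 1.96 to 2.18. VEH-T3 averaged 2.75 ± 0.353 FPKM against 2.21 ± 0.257 in VEH-HC, a log2 difference of 0.22 (standard error 0.0744, limma adjusted p = 0.0731, exact permutation p = 0.0238). Leaving out VEH-HC mouse 6 raised it to 0.27 with an adjusted p of 0.0399, and the call was also gained without VEH-T3 mouse 4 (0.043) or Y397F-T10 mouse 2 (0.0463). In Y397D-T3 the log2 difference from VEH-HC was 0.16 (limma adjusted p = 0.166), and in VEH-T10 it was 0.00 (adjusted p = 0.993). VEH-T10 lay below VEH-T3 by -0.22 (standard error 0.0744, limma adjusted p = 0.449), and none of its 6 mice reached the VEH-T3 median.

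Tet3 (ENSMUSG00000034832, chromosome 6: 83362373–83459084, minus strand) was the most abundant eraser. Its lowest, median and highest FPKM were 4.05, 4.85 and 5.21 in VEH-HC, 4.81, 5.52 and 5.83 in VEH-T3, 4.63, 5.48 and 6.09 in Y397D-T3, 4.51, 4.6 and 5.42 in VEH-T10, and 4.86, 5.17 and 5.72 in Y397F-T10. Values of VEH-T3 and Y397D-T3 were the highest, and both overlapped the home cage. The log2 difference from VEH-HC was 0.15 in VEH-T3 (standard error 0.0589, limma adjusted p = 0.125, 5 of 6 above the home cage median) and 0.16 in Y397D-T3 (adjusted p = 0.0973, 5 of 6). With each library centred on its median log2 value the Y397D-T3 difference became 0.19 and was called (adjusted p = 0.0427), as it was without Y397D-T3 mouse 1 (0.20, adjusted p = 0.037), whose 4.63 FPKM was the lowest of its condition. With the trend of each library on transcript length and GC content removed it was 0.09 (adjusted p = 0.263). Without VEH-HC mouse 4, at 4.05 FPKM the lowest home cage mouse, both differences from VEH-HC were smaller. They were 0.11 in VEH-T3 (limma adjusted p = 0.311) and 0.12 in Y397D-T3 (adjusted p = 0.212). Y397F-T10 exceeded VEH-T10 by 0.10 (limma adjusted p = 1.0, exact permutation p = 0.0476, or 0.224 adjusted over the 63 tests), and 6 of 6 mice lay above the VEH-T10 median.

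The transcripts of Tet1, Tet3, Dnmt3a and Tet2 are among the longest tested, at the 95.7, 94.5, 93.4 and 92.8 percentile of length over the tested rows, and length moved with the comparisons. Across 12686 rows with a known length, the log2 difference of VEH-T3 from VEH-HC followed transcript length with a rank correlation of 0.326, and that of VEH-T10 from VEH-T3 with -0.312. Y397F-T10 gave 0.345 against VEH-T10 and 0.344 against VEH-HC. There the long genes named above differed by 0.04 to 0.10 and by 0.02 to 0.11. Y397D-T3 gave 0.196 against VEH-HC and -0.124 against VEH-T3, and VEH-T10 gave 0.0967 against VEH-HC. For GC content the rank correlation was -0.278 for VEH-T3, -0.26 for Y397F-T10, -0.031 for Y397D-T3 and -0.102 for VEH-T10, each against VEH-HC. It was 0.238 for VEH-T10 against VEH-T3, -0.227 for Y397F-T10 against VEH-T10 and 0.311 for Y397D-T3 against VEH-T3. These are descriptions over genes, which are not independent. Tet1, Tet2, Dnmt3a and Tet3 lay at the 17.6, 25.3, 58.2 and 65.9 percentile of GC. The next step removes both trends together, so their parts cannot be told apart. With the trend of each library on length and GC content removed, the VEH-T3 difference from VEH-HC became 0.14 for Dnmt3a (limma adjusted p = 0.0908), 0.12 for Tet2 (0.45), 0.07 for Tet3 (0.529) and -0.04 for Tet1 (0.795). The Y397D-T3 difference from VEH-HC became 0.08 for Dnmt3a (0.267), 0.11 for Tet2 (0.359) and 0.09 for Tet3. The same step took the VEH-T10 difference from VEH-T3 to -0.10 for Dnmt3a, -0.13 for Tet2, -0.07 for Tet3 and -0.01 for Tet1. Among Dnmt3a, Tet2 and Tet3, Dnmt3a kept the largest share of its VEH-T3 difference from VEH-HC. The Tet1 value comes from the fit without the filter and from log2(FPKM + 1), which shrinks changes at its level. How far its turn of sign depends on that scale was not tested.

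**Figure D4:**
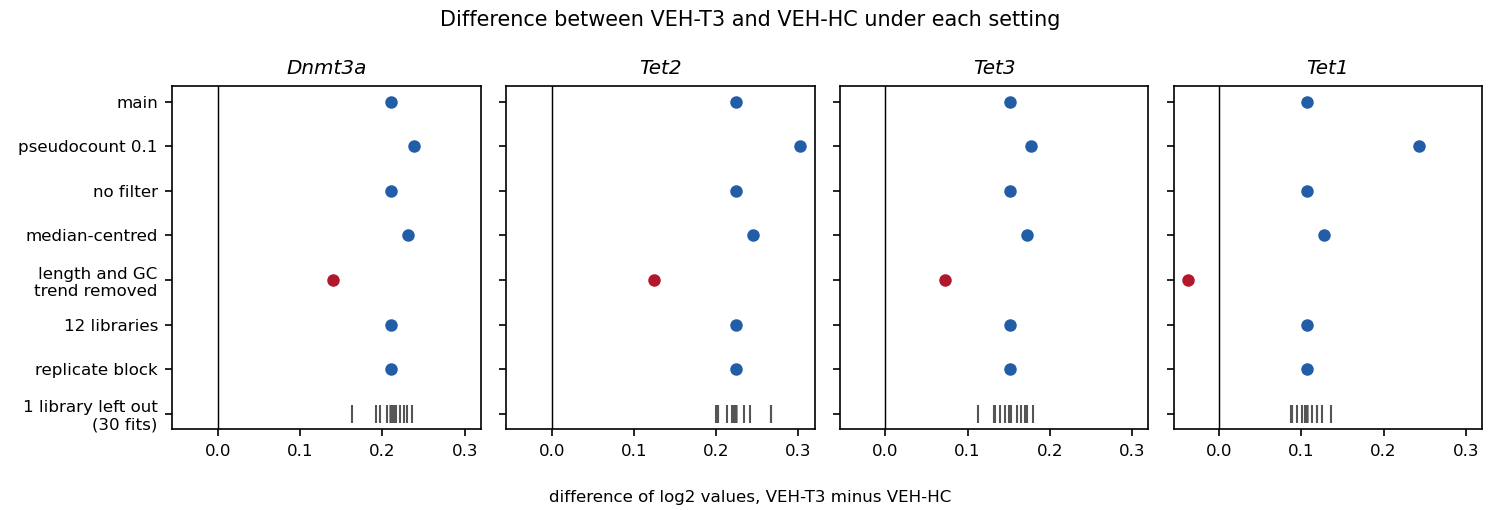
Difference of log2 values between VEH-T3 and VEH-HC for Dnmt3a, Tet2, Tet3 and Tet1 under each processing setting, with ticks for the 30 fits that leave out a library each. Removing the length and GC trend (red) moves each gene toward 0, from 0.21 to 0.14 for Dnmt3a and from 0.11 to -0.04 for Tet1.

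Mbd1 (ENSMUSG00000024561, chromosome 18: 74267605–74282732, plus strand), whose product binds methylated CpG, averaged 8.28 ± 0.484 FPKM in VEH-HC, 8.56 ± 0.429 in VEH-T3, 8.81 ± 0.422 in Y397D-T3, 8.26 ± 0.903 in VEH-T10 and 8.63 ± 0.552 in Y397F-T10. Mbd2 (ENSMUSG00000024513, chromosome 18: 70568189–70626131, plus strand), a methylated-CpG binder that shares NuRD with MBD3 in alternative forms of the complex, averaged 28.1 ± 1.16, 28.5 ± 4.69, 27.8 ± 2.89, 27.1 ± 2.35 and 27.6 ± 3.76 FPKM in the same order. Mbd3 (ENSMUSG00000035478, chromosome 10: 80392539–80399550, minus strand) averaged 80.8 ± 4.49, 79.3 ± 3.66, 81.9 ± 8.3, 80.2 ± 2.31 and 78.2 ± 5.37 FPKM. For each of these genes the ranges of all 5 conditions overlapped. Over the 9 comparisons the log2 differences ran from -0.05 to 0.08 for Mbd1, from -0.06 to 0.02 for Mbd2 and from -0.05 to 0.08 for Mbd3, and the lowest limma adjusted p was 0.371. Their 95% intervals bound what could have been missed: for VEH-T3 against VEH-HC they ran from -0.07 to 0.15 for Mbd1, from -0.18 to 0.19 for Mbd2 and from -0.13 to 0.08 for Mbd3. The level of Mbd2 moved with the median log2 value of its library (Pearson r = 0.841 over 30 libraries, a description), more closely than any other member, whose r lay between -0.35 and 0.349.

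For the plasmids, the effect of the phospho-null plasmid was read at 10 min and that of the phospho-mimetic plasmid at 3 min, each against the reagent without DNA. Y397F-T10 minus VEH-T10 gave log2 differences of 0.05 for Dnmt1, 0.04 for Dnmt3a, 0.05 for Tet1, 0.08 for Tet2, 0.10 for Tet3, 0.06 for Mbd1, 0.02 for Mbd2, -0.04 for Mbd3 and -0.01 for Dnmt3b. Y397D-T3 minus VEH-T3 gave -0.06 for Dnmt1, -0.08 for Dnmt3a, -0.04 for Tet1, -0.06 for Tet2, 0.01 for Tet3, 0.04 for Mbd1, -0.02 for Mbd2, 0.04 for Mbd3 and 0.04 for Dnmt3b. The difference between these effects was not called for any member (lowest limma adjusted p = 0.701, for Dnmt1 at -0.10), and the widest 95% interval among the writers and erasers, that of Tet2, ran from -0.35 to 0.08. Since the plasmids were given with different training periods, the plasmid and the training period cannot be told apart in this difference. Without a wild-type CREST plasmid, the mutation and the added CREST cannot be told apart either.

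From library to library, on log2(FPKM + 1) centred on the library median, the 7 members above 1 FPKM formed 21 pairs with Pearson r from -0.452 to 0.788 and a median of -0.0795. The 3 pairs with r over 0.5 were Dnmt3a with Tet3 (0.788), Dnmt3a with Tet2 (0.761) and Tet2 with Tet3 (0.695), all between the long transcripts. The lowest r was that of Dnmt1 with Mbd2, at -0.452, and 12 pairs had an r below 0. These correlations share library, depth and base composition between genes and are descriptions over 30 libraries, with no p. The rows whose pattern was most like that of a member, among 13184, were Kmt2d (0.88) and Ubn2 (0.875) for Dnmt3a, Safb2 (0.867) and Usp48 (0.849) for Tet2, Celf1 (0.865) and Pkd1 (0.858) for Tet3, and Aes (0.84) and Fkbp3 (0.824) for Mbd3. For the other members they were Igip (0.75) and Slc7a8 (0.732) for Dnmt1, Swt1 (0.692) and Hmbox1 (0.677) for Mbd1, and Gng5 (0.798) and 1700012B09Rik (0.785) for Mbd2.

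Annotated noncoding genes overlap 6 of the members, Dnmt3aos and Dnmt3bos and, on the strand opposite to the member, Gm42567 in Tet2 and B230319C09Rik in Tet3 among them. The sources used here do not say whether the libraries keep strand, so reads of a member and of an antisense partner cannot be told apart in these values.

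A list of 40 partner genes of the pathway was also followed, of which 37 had a mean of at least 1 FPKM. Of these 37, 5 are partners of the writers, 13 partners of the erasers, base excision repair included, 8 other CpG readers and 11 NuRD subunits. In VEH-T3 against VEH-HC 3 of the 37 rose and 0 fell, with a median log2 difference of 0.00 beside -0.04 over all tested rows and 5.17% of rows called. Y397D-T3 against VEH-HC gave 3 that rose and 0 that fell, with a median of 0.02 beside -0.03 and 7.07% called, and the mean of the trained conditions gave 3 that rose and 1 that fell, with a median of -0.0009 beside -0.04 and 9.66% called. In the other 6 comparisons limma called 0 of the 37, where at an unadjusted p under 0.05 it gave 3 for VEH-T10 and 7 for Y397F-T10 against VEH-HC, 3 for Y397F-T10 beside its vehicle VEH-T10, 1 for Y397D-T3 beside VEH-T3, 1 for VEH-T10 against VEH-T3 and 2 for the difference between the plasmid effects. The Cyber-T-style test gave 1 gene, Gatad2b, for Y397F-T10 against VEH-HC and for VEH-T10 against VEH-T3, and 0 in the remaining 3 of these comparisons between pairs of conditions.

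The genes that rose were Gatad2b, Ogt and Uhrf2 each time, so 1 NuRD subunit, 1 eraser partner and 1 writer partner, while 0 of the 8 other CpG readers were called by limma in any of these comparisons (2, 4 and 3 of them had an unadjusted p under 0.05 and a positive difference). For Gatad2b, a NuRD subunit that joins the MBD protein to the remodelling ATPase, the lowest, median and highest FPKM were 5.86, 10.2 and 10.5 in VEH-HC, 11.6, 13.6 and 14.8 in VEH-T3, 10.5, 13.6 and 14.0 in Y397D-T3, 9.11, 10.2 and 12.3 in VEH-T10, and 11.04, 12.3 and 14.3 in Y397F-T10. Every mouse of VEH-T3, of Y397D-T3 and of Y397F-T10 exceeded the home cage median. All VEH-T3 mice and all Y397F-T10 mice also lay above all VEH-HC mice. That lack of overlap was shown by 262 and 237 of 13184 tested rows in these comparisons. Against VEH-HC limma did not call Gatad2b in Y397F-T10 or in VEH-T10. The log2 difference from VEH-HC was 0.49 in VEH-T3 (standard error 0.1, limma adjusted p = 0.0098) and 0.46 in Y397D-T3 (adjusted p = 0.00698). VEH-HC mouse 4, the lowest at 5.86 FPKM, enlarged both, and without it they were 0.38 (adjusted p = 0.0185) and 0.34 (adjusted p = 0.0115).

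Ogt, the O-GlcNAc transferase that TET proteins bind, averaged 34.7 ± 1.69 FPKM in VEH-HC, 40.4 ± 3.01 in VEH-T3, 41.1 ± 2.28 in Y397D-T3, 39.5 ± 1.12 in VEH-T10 and 38.2 ± 2.26 in Y397F-T10. Its log2 difference from VEH-HC was 0.21 in VEH-T3 (standard error 0.0463, limma adjusted p = 0.0136) and 0.24 in Y397D-T3 (adjusted p = 0.00318), and 0.18 in VEH-T10 (adjusted p = 0.0509) and 0.13 in Y397F-T10 (adjusted p = 0.142). With the length and GC trend removed the VEH-T3 call of Ogt was lost (0.18, adjusted p = 0.0522). Uhrf2, a relative of the DNMT1 recruiter UHRF1, averaged 10.7 ± 0.56 FPKM in VEH-HC, 11.9 ± 0.527 in VEH-T3 and 11.9 ± 0.625 in Y397D-T3. The log2 differences from VEH-HC were 0.15 (standard error 0.0413, limma adjusted p = 0.036) and 0.15 (adjusted p = 0.029). After 10 min the level was close to these, at 11.75 ± 0.737 FPKM in VEH-T10 and 11.65 ± 0.358 in Y397F-T10. Their differences from VEH-HC were 0.13 (limma adjusted p = 0.119) and 0.12 (adjusted p = 0.139). Leaving out libraries changed the Uhrf2 calls of VEH-T3 and Y397D-T3, which 8 and 6 respectively of the 30 fits that leave out a library lost. The adjusted p reached 0.115 without VEH-T3 mouse 2 and 0.0739 without Y397D-T3 mouse 5. The Cyber-T-style test called neither (adjusted p = 0.308 and 0.316). In the mean of the trained conditions the Uhrf2 difference was 0.14 (limma adjusted p = 0.0106), a call that 0 of the 30 fits lost.

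Cxxc4, which encodes a CXXC protein that binds TET2, fell by 0.31 on the log2 scale in the mean of the trained conditions (standard error 0.0931, limma adjusted p = 0.0316), from 3.07 ± 0.419 FPKM in VEH-HC to between 2.23 and 2.33 in the trained conditions. The call was lost in 5 of the 30 fits, each without 1 of VEH-HC mice 2 to 6, with a value of -0.26 (adjusted p = 0.115) without mouse 2, and with libraries centred on their median (adjusted p = 0.0958). The thalamus markers given above were also higher in VEH-HC than in most trained mice, and their part in the Cxxc4 difference was not tested.

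**Figure D5:**
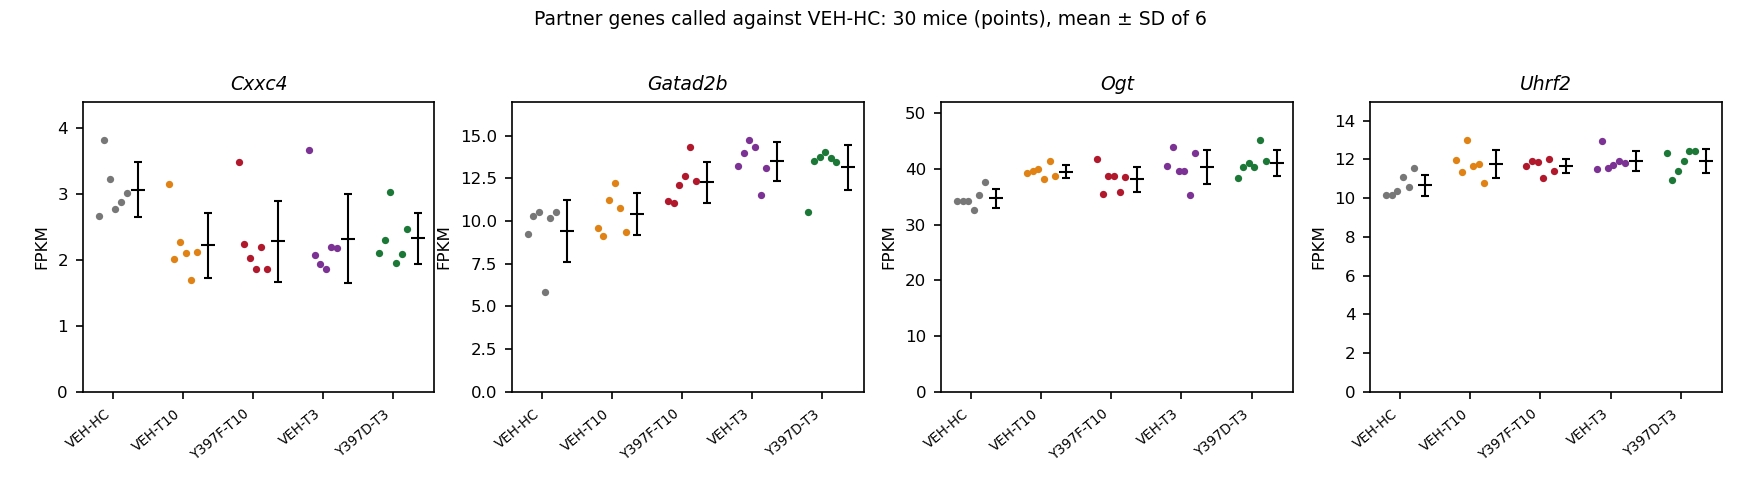
FPKM (vertical axes from 0) of the 4 partner genes called against VEH-HC, with 1 point per mouse and the mean ± SD of 6 mice per condition. Gatad2b shows VEH-HC mouse 4 at 5.86 below the other home cage mice, Ogt and Uhrf2 are lowest in VEH-HC, and Cxxc4 is highest in VEH-HC.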

How the data were processed

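RNA of 30 mice, 6 per condition, was measured by paired-end sequencing on NovaSeq and HiSeq instruments that the sources do not assign to libraries, so the instrument was not modelled. The authors aligned reads with TopHat2 2.1.1 to mm10 and deposited FPKM from Cufflinks 2.2.1, which divides by transcript length and mapped fragments. Conditions follow the sample labels, and 0 value columns were left out. FPKM holds no read totals, so absolute depth is unknown and precision rests on the spread of 6 mice. Relative depth was estimated from 2642 low rows.

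Rows with a mean of at least 1 FPKM (13184) were analysed on the log2(FPKM + 1) scale in limma 3.58.1 under R 4.3.3. Each condition had its own coefficient, all 30 libraries shared 1 variance per gene with a trend on expression, and Benjamini-Hochberg adjustment ran within each comparison. Adding 1 understates changes of low genes. The fit was tested on simulated data. Single levels were compared with exact permutation tests. Coordinates, lengths and GC content come from GENCODE M21 on GRCm38 (96.2% of tested rows matched), and promoter windows from RefSeq. The replicate numbers in the labels belong to different mice.

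Alternatives were a pseudocount of 0.1, no filter (18287 rows above 0 in at least 6 libraries), median centring, removal of the length and GC trend (natural splines), unadjusted p, a Cyber-T-style test with a prior weight of 10, only the 12 libraries compared, a replicate block, and leaving out each library. The members are a fixed set of gene symbols, and they, the lists and the tests were chosen with earlier results of these data known. The genes named are the 9 members, the partner genes called in a comparison, and the 2 rows most like each member above 1 FPKM. Other steps used Python 3.11.15 (scipy 1.17.1, numpy 2.4.6, matplotlib 3.10.9, pandas 2.3.3).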

Additional observations from a re-analysis of the deposited data

Results flagged for a closer look

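In 5 of the 45 sets of 6 mice (9 members in 5 conditions), 1 mouse stood farther from its group than Dixon's 95% limit, where about 2.25 are expected by chance. VEH-HC mouse 4 was low in Dnmt3a, at 5.18 FPKM beside 6.36 to 6.97, and high in Mbd3, at 89.5 beside 76.3 to 80.2. VEH-HC mouse 6 was high in Tet2, at 2.7 FPKM beside 1.96 to 2.18. Y397F-T10 mouse 5 was low in Dnmt3a, at 5.67 FPKM beside 6.71 to 7.31, and Y397D-T3 mouse 5 was high in Tet1, at 0.789 beside 0.578 to 0.646. The home cage mice enter every comparison with VEH-HC. Values without them are given above for Dnmt3a (VEH-T3 and Y397D-T3) and Tet2 (VEH-T3), and for no other comparison of the genes flagged here. For Tet3 and Gatad2b, not flagged here, values without VEH-HC mouse 4 are also given above.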

How the results depend on the processing

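The count of members called was 0 in each of the 9 comparisons. At an unadjusted p under 0.05 it was 4 for VEH-T3 and 4 for Y397D-T3 against VEH-HC, 4 for VEH-T10 against VEH-T3 and 2 for the mean of the trained conditions. With libraries centred on their median it was 1 for Y397D-T3 against VEH-HC, and the fits without 1 library each gave 0 to 2 for VEH-T3 and 0 to 1 for Y397D-T3 against VEH-HC. The remaining alternatives gave 0. Over the other settings the adjusted p of VEH-T3 against VEH-HC ran from 0.056 to 0.28 for Dnmt3a and from 0.0771 to 0.45 for Tet2. That of Tet3 for Y397D-T3 against VEH-HC ran from 0.0427 to 0.58. The upper ends for Dnmt3a and Tet3 are those of the Cyber-T-style test, whose p is not adjusted over rows. Among the member differences with an unadjusted p under 0.05, that of Tet1 between VEH-T3 and VEH-HC alone turned its sign, to -0.0383 with the length and GC trend removed, and the cause was not tested.

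Of the partner genes, 3 were called in VEH-T3 against VEH-HC, but 0 with only the 12 libraries compared and 2 by the Cyber-T-style test and with the replicate block, each without Uhrf2. With the length and GC trend removed the count stayed at 3, with Ogt lost and Cxxc1, named here after its values were seen, gained. In Y397D-T3 against VEH-HC the count was 3, and it was 6 with median centring, 5 with the length and GC trend removed and 8 with the 12 libraries, each with Gatad2b, Ogt and Uhrf2 among them, and 5 by the Cyber-T-style test, which did not call Uhrf2. In VEH-T10 against VEH-HC the 0 became 1, Ogt, with the trend removed and with the 12 libraries. The causes were not tested. Pairing by replicate number is not given by the design: deviations of same-numbered libraries correlated with r from -0.496 to 0.84 over 60 pairs, 24 of them over 0.1, and 8 of 30 libraries correlated best with 1 of their own number. With the replicate block the count of members called was 0 in all 9 comparisons. FPKM without read totals limits what can be said of Tet1 and Dnmt3b.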
